A study of Drosophila melanogaster with 4 samples.

Results

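The right arm of chromosome 3, called 3R, carried 1862 of the 9053 regions enriched for the protein POF in the replicate set of this series. These regions, here called clusters, were taken as every row on 3R that the replicate set names as enriched, and each was then asked whether either ChIP replicate list had a cluster over it by at least 1 base. The material was head nuclei, from heads sieved off whole mixed adult Oregon-R flies of wild-type genotype kept in population cages. POF ChIP-seq with the antibody MO 459 gave 2 ChIP libraries, and each of 2 input libraries served as background for 1 of the ChIP lists. All groups share that genotype, stage and tissue, heads of many flies and many cell types were pooled in each sample, and nothing in the labels tells whether the replicates were separate collections, so their spread may be technical only. No marker in the lists could check the tissue. Read depth is unknown, since the lists hold regions and scores only, and no counting interval was put on any single region. Positions are those of FlyBase release 5, and the arm runs from base 1 near the centromere to 27905053 near the telomere.

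POF is an RNA-binding protein of Drosophila named for painting the fourth chromosome, a small and largely heterochromatic chromosome whose active genes it binds along their length. It is known to raise the output of those genes, and its binding there depends on the heterochromatin protein HP1a and on the histone methyltransferase eggless. Binding outside that chromosome has been described mainly near the roX genes of the X and at single sites elsewhere. Arm 3R is an ordinary euchromatic arm that carries the Antennapedia and bithorax homeotic complexes, so the clusters described here are those of a chromosome that POF is not known to paint. Genes under the clusters were not analysed here, because the only gene table used follows another assembly, Release 6, and positions were not carried between builds.

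POF clusters were scattered over the whole of 3R as short regions, with 11.2% of the arm covered in replicate 1 and 10.4% in replicate 2, a mean of 10.8% ± 0.622 (SD, n = 2). Replicate 1 had 1399 clusters over 3.13 Mb and replicate 2 had 1200 over 2.89 Mb, while the replicate set covered 4.14 Mb with its 1862, or 14.8% of the arm. Density was 50.1 and 43.0 clusters per Mb in replicates 1 and 2 and 66.7 for the replicate set. Clusters reached close to both ends of the sequence. They ran from 9630 to 27899400 in replicate 1, from 21761 to 27895449 in replicate 2 and, for the replicate set, from 6130 to 27899361.

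Most clusters were about 2 kb wide. The median width was 2041 bases in replicate 1 and 2199 in replicate 2, with quartiles of 1703 to 2412 and 1970 to 2616 bases, and that of the replicate set was 2029 bases. The widest reached 11.8 kb and 11.6 kb in the replicates and 12.2 kb in the replicate set. Broad clusters were rare. A width of 5 kb was reached by 24 clusters of replicate 1 (1.72%, where all large arms and chromosome 4 together had 2.63%), by 20 of replicate 2 (1.67%, background 3.00%) and by 52 of the replicate set (2.79%, background 3.67%). Each cluster has a score set by the authors, and the sources used here give neither its scale nor its log base. Medians were 0.604 in replicate 1, 0.756 in replicate 2 and 0.441 for the replicate set, and the highest values were 3.59, 4.17 and 3.93.

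Set against the other large arms (2L, 2R, 3L and X, pooled), 3R was covered to 10.8% ± 0.622, against 10.9% ± 1.11 (SD, n = 2 each). The difference changed sign between the libraries, at -0.475 percentage points in replicate 1 and 0.215 in replicate 2 (exact two-sided sign-flip permutation test over the replicates, p = 1). Arm 2R alone was more covered than 3R in both, with 3R lower by 1.72 points in replicate 1 and by 1.10 in replicate 2. For X the lists disagreed, with 3R minus X at 0.383 points in replicate 1, 0.385 in replicate 2 and -0.961 for the replicate set. Clusters of at least 5 kb made up 1.69% ± 0.0345 of the clusters on 3R, against 2.45% ± 0.308 on the other large arms (SD, n = 2 each), and the difference was -0.514 points in replicate 1 and -0.998 in replicate 2. Arm 3L had nearly the same low share, 1.77% ± 0.0472 (SD, n = 2), and 3R minus 3L was -0.0912 points in replicate 1, -0.0734 in replicate 2 and 0.219 for the replicate set. The median width leaned the other way, at 2120 ± 112 bases on 3R against 2086 ± 91.2 on the other arms (SD, n = 2 each), with 3R wider by 19 bases in replicate 1 and by 48 in replicate 2. For broad clusters and for the median width the exact sign-flip permutation test gave p = 0.5, which is the smallest value that 2 replicates allow.

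**Figure D1:**
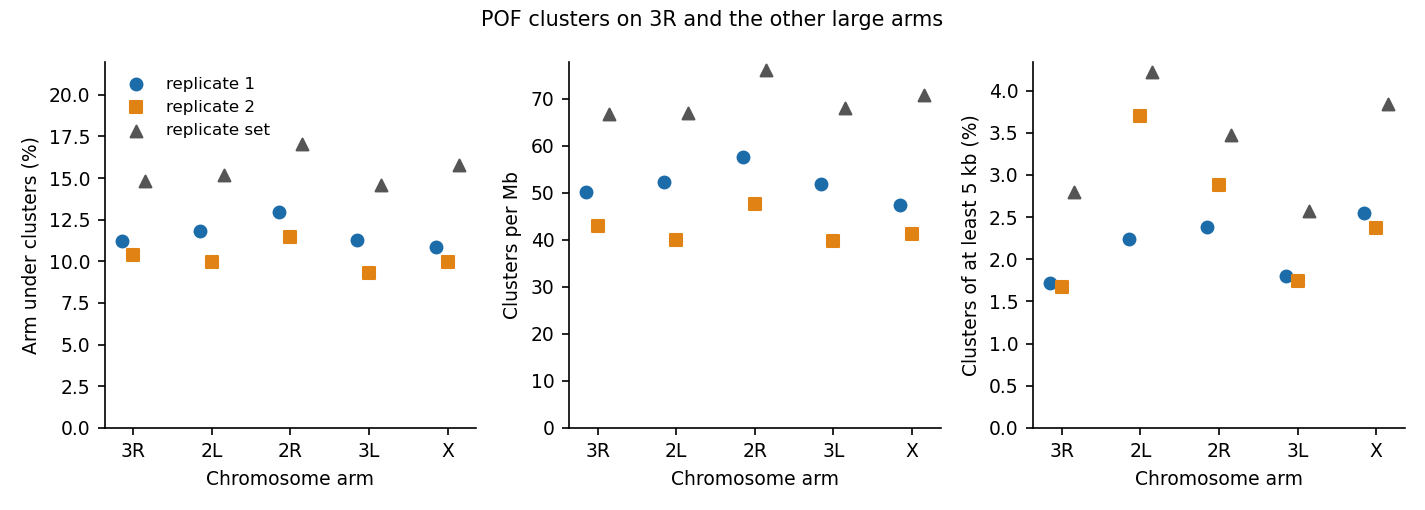
Share of each arm under POF clusters, clusters per Mb and share of clusters at least 5 kb wide, on 3R and on 2L, 2R, 3L and X, with 1 point for each replicate list and for the replicate set. On 3R the 3 lists stand at 11.2%, 10.4% and 14.8% of the arm, within the range of the other arms, and the replicates' shares of broad clusters, 1.72% and 1.67%, are the lowest points of the right panel.

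Of the 1862 members, 983 were overlapped by both replicates, which is 52.8% (exact 95% binomial interval 50.5% to 55.1%) where all large arms and chromosome 4 gave 50.3%. Replicate 1 alone overlapped 280 members (15.0%, background 16.5%), replicate 2 alone 180 (9.67%, background 8.77%), and neither replicate overlapped 419 (22.5%, background 24.5%). On the other large arms together the share in both was 49.4% (48.2% to 50.7%), and arm by arm it was 50.7% on 2L, 51.8% on 2R, 49.6% on 3L and 45.7% on X. The interval of 3R overlaps those of 2L, 2R and 3L but not that of X (43.2% to 48.2%). Since the replicate set is a single list, the difference between arms could not be tested over samples. These intervals cover counting error only, and neighbouring clusters are not independent.

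The supported members were the wide ones and held most of the bound sequence. Members in both replicates were 2421 bases wide and scored 0.749 at the median, and they made up 68.2% of the covered length. Members in neither were 1171 bases wide and scored 0.385 at the median, and made up 12.7%. Those in replicate 1 only and in replicate 2 only lay between them in width, at 1586 and 1776 bases, but scored lowest, at 0.339 and 0.318. Counted in bases, 55.4% of the replicate-set sequence on 3R lay under clusters of both replicates, 27.4% under 1 of them and 17.2% under neither. No source used here states how the replicate set was built from the replicates. Its score may rest on the same reads as the replicate lists, so the relation of score to support is a description only.

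Support turned over within a narrow range of widths. Of the 466 narrowest members, 1001 to 1433 bases wide, 0 were overlapped by both replicates, which allows a share of up to 0.644%, and 334 of them (71.7%) were overlapped by neither. In the next quartile, up to 2027 bases, 118 of 464 members (25.4%) were in both. Of the 466 members between 2029 and 2517 bases 425 (91.2%) were in both, and of the 466 widest 440 (94.4%). No cluster of either replicate list is narrower than 1301 bases, whereas 382 members of the replicate set on 3R are, among them 289 of the 419 in neither replicate and 0 of the 983 in both. Under a rule of 1 base, wider members also meet a replicate cluster more often by position alone. The parts of that width limit and of position in the support were not tested.

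Scores also changed their relation to width at about 2 kb, a limit chosen after the values were seen. Among the 892 members under 2 kb wider ones had lower scores (Spearman rho -0.58, across clusters, which are not independent). Among the 970 members of 2 kb or more wider ones had higher scores (rho 0.27). In replicate 1 the values were -0.16 over 614 clusters and 0.34 over 785. In replicate 2 both were positive, 0.13 over 336 clusters and 0.45 over 864. For the replicate set on the other large arms they were -0.46 and 0.31. No cluster under 2 kb scored above 1 in either replicate on 3R, while 298 wider clusters did in replicate 1 and 403 in replicate 2. On the other large arms some narrow ones did, 13 of 2209 in replicate 1 and 5 of 1227 in replicate 2. Of the wider ones there, 883 of 2545 and 1206 of 2601 did.

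**Figure D2:**
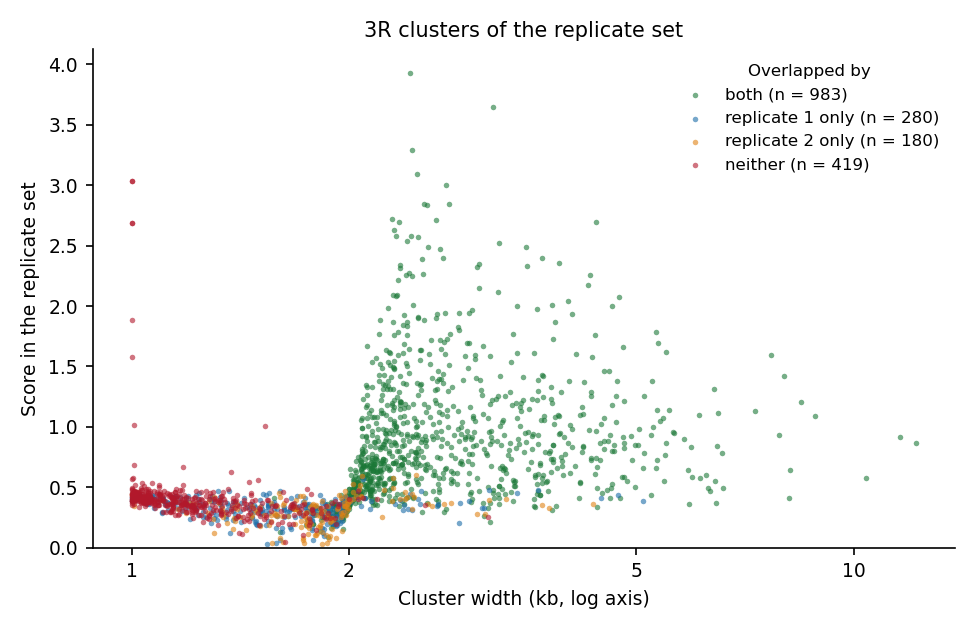
Score against width (kb, log axis) for the 1862 clusters of the replicate set on 3R, 1 point each, coloured by the replicate lists that overlap them. Members in both replicates lie mostly at 2 kb or more (895, with 88 under 2 kb), and a thin column of members in neither replicate stands at a width of 1001 bases with scores up to 3.03.

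By score, the order of support was less regular at the low end. In the lowest quartile of scores, up to 0.348, 15.9% of members were in both replicates and 26.2% in neither, and in the next, up to 0.441, the shares were 20.4% and 45.2%. In the quartile above that 76.6% were in both and 17.0% in neither. Of the 466 highest-scoring members 458 (98.3%) were in both and 8 (1.72%) in neither, and 0 were in 1 replicate only. Within the 2 upper width quartiles, all 233 members above the median score of each quartile were in both replicates, against 192 and 207 of the 233 at or below it (82.4% and 88.8%).

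**Figure D3:**
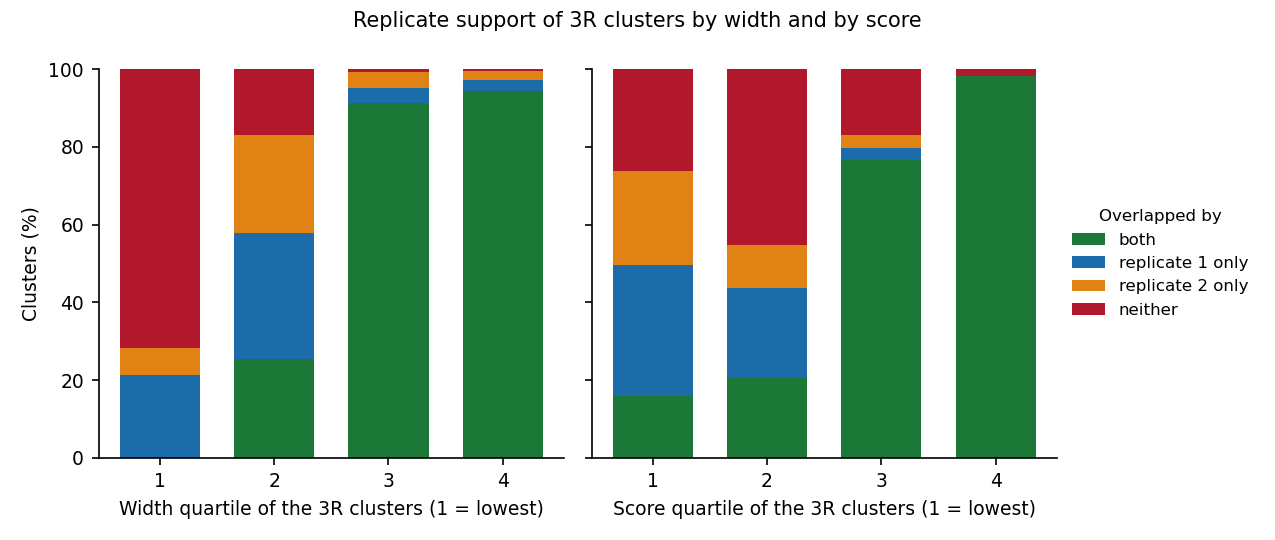
Share of the 3R clusters of the replicate set that were overlapped by both replicates, by 1 of them or by neither, in quartiles of width (left) and of score (right). The share in both runs 0%, 25.4%, 91.2% and 94.4% from the narrowest to the widest quartile and 15.9%, 20.4%, 76.6% and 98.3% from the lowest to the highest scores.

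Between the replicates themselves, 1010 of the 1399 clusters of replicate 1 on 3R (72.2%) were overlapped by replicate 2, where the background was 69.9%. In the other direction 1005 of 1200 (83.8%) were overlapped by replicate 1, background 84.5%. The Jaccard index of covered length was 0.614 on 3R against 0.595 on the other large arms. Clusters of both replicates lay over 8.21% of the arm, 2.29 Mb, and clusters of exactly 1 of them over 5.17%. Compared with the other large arms, the overlapped share was higher on 3R by 3.22 points for replicate 1 and lower by 0.863 for replicate 2 (exact sign-flip permutation p = 1).

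Clusters that matched between replicates sat on nearly the same bases. Of the clusters, 949 pairs overlapped each other and no further cluster. Their centres were a median of 73.5 bases apart, and in 94.2% of the pairs the shared stretch was at least 90% of the narrower cluster. Replicate 2 had the wider cluster in 639 pairs and replicate 1 in 306. Across the pairs Pearson's r was 0.91 for the scores and 0.80 for the widths, and Spearman's rho 0.83 and 0.74. Clusters share their libraries, so these values describe the lists and carry no test. Clusters that the other replicate lacked were low and narrow. The 389 of replicate 1 had a median score of 0.517 against 0.733 for the overlapped ones, and the 195 of replicate 2 had 0.463 against 0.863.

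**Figure D4:**
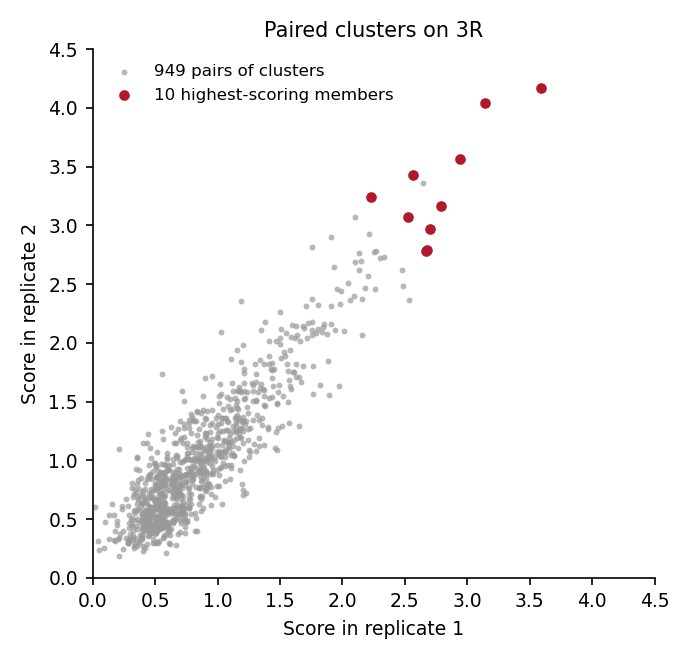
Scores of the 949 pairs of clusters on 3R that match one to one, with replicate 1 on the horizontal and replicate 2 on the vertical axis, and the 10 highest-scoring members in both replicates marked. The marked members score 2.23 to 3.59 in replicate 1 and 2.78 to 4.17 in replicate 2, at the upper end of the cloud.

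The replicate set kept the 2 lists unequally. Of the replicate 1 clusters on 3R, 1291 of 1399 (92.3%, background 92.1%) met a member of the replicate set, against 1188 of the 1200 of replicate 2 (99.0%, background 98.9%). The 108 clusters of replicate 1 without a member scored 0.516 and were 1436 bases wide at the median. Sequence under both replicates was kept almost whole, with 99.999% of it inside members. Members held 2 clusters of replicate 1 in 36 cases and 2 or 3 clusters of replicate 2 in 30. Few members sat at the edge of the overlap rule. The smallest overlap was 4 bases with replicate 1 and 1 base with replicate 2, and 5 and 3 overlaps were under 100 bases. The nearest members without an overlap were 13 bases from a cluster of replicate 1 and 13 from one of replicate 2, and 5 and 9 such members lay within 100 bases.

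The 10 highest-scoring members found in both replicates lay between 57046 and 20079565, with none in the stretch from there to the telomere end. In the replicate set they ranked 1 to 4 and 7 to 12 of the arm by score, since 2 members in neither replicate, described further on, tied at rank 5. The highest-scoring one lay at 3R:11054022-11056450, 2429 bases wide, and scored 3.93 in the replicate set, 3.59 in replicate 1 and 4.17 in replicate 2. It was the highest of 3R in each list. The next, at 3R:9485019-9488188, scored 3.65, 3.14 and 4.04 in the same order of lists, and the one at 3R:19933680-19936126 scored 3.29, 2.94 and 3.56. Both replicates thus ranked the first 3 sites in the same order.

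Below these, the ranks of the replicates parted. The site at 3R:15845964-15848447 scored 3.09 in the replicate set, 2.56 in replicate 1, rank 9 of the arm, and 3.43 in replicate 2, rank 4. The site at 3R:4174055-4176591 scored 2.84 in the replicate set, 2.23 in replicate 1, rank 22, and 3.24 in replicate 2, rank 6. Of these 10 members it was the one on which the replicates differed most in rank. The site at 3R:57046-59773, close to the centromere end of the sequence, scored 3.00 in the replicate set, 2.79 in replicate 1 and 3.17 in replicate 2.

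The remaining 4 sites scored 2.71 to 2.84 in the replicate set. They lay at 3R:20013302-20016055, 3R:8537035-8539599, 3R:20077272-20079565 and 3R:1416155-1418790, and they scored 2.53 to 2.70 in replicate 1 and 2.78 to 3.07 in replicate 2. With 3R:19933680-19936126, 3 of the 10 sites fell between 19000001 and 21000000, a grouping noticed after the values were seen. All 10 were 2.29 to 3.17 kb wide, above the 3R median of 2029 bases for the replicate set. Of these 10, 8 were met by the 10 highest-scoring clusters of replicate 1, 8 by those of replicate 2 and 6 by both. All of the 100 highest-scoring clusters of either replicate on 3R were overlapped by a cluster of the other, and 79 of those of replicate 1 met the 100 highest of replicate 2.

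Wide members scored far lower than these sites. The widest, 3R:5903196-5915369, measured 12.2 kb and scored 0.871 in the replicate set. Replicate 1 had a single cluster of 11.8 kb there with a score of 0.987, and replicate 2 had clusters scoring 0.919 and 0.616 in it and a further one, at 0.604, that ran into it from the neighbouring member. That neighbour, 3R:5915373-5925765, was 10.4 kb wide, scored 0.579 and began after a gap of only 3 bases. Together they spanned 22.6 kb, of which clusters of replicate 1 covered 79.3%, those of replicate 2 83.8% and the members 99.99%.

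Among the other wide members, 3R:4872570-4884147 (11.6 kb, score 0.920) was a single cluster in each replicate, 11.4 kb wide with a score of 0.860 in replicate 1 and 11.6 kb with 0.986 in replicate 2. The members at 3R:7582618-7591447 (8.83 kb, score 1.09) and 3R:17007200-17015653 (8.45 kb, score 1.20) each corresponded to 2 clusters in either replicate. The higher of those clusters scored 1.47 in replicate 1 and 1.49 in replicate 2 at the first, and 1.48 and 1.55 at the second. The 5 widest members ranked 216 to 673 of the arm by score.

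Members found in neither replicate included a few of the highest scores on the arm. Of the 318 members with a score above 1 (17.1%, where the background over all large arms and chromosome 4 was 15.7%), 310 were in both replicates, 0 of the 460 overlapped by 1 replicate only, which allows a share of up to 0.652%, and 8 were in neither. Of those 8, 6 had the smallest width in the list, 1001 bases. The 5 highest lay at 3R:6167409-6168409 and 3R:6783725-6784725, both scoring 3.03, at 3R:14435465-14436465 and 3R:25716002-25717002, both 2.68, and at 3R:11642946-11643946, 1.89. All 5 were 1001 bases wide, and the scores within each pair were equal to 9 decimals. The score of 3.03 recurred on chromosome 4 and on the X, and that of 1.89 on 2R and on the X, each time in a cluster of 1001 bases found in neither replicate. On 3R 26 of 1862 members (1.40%) had that smallest width, against 102 of 6411 (1.59%) on the other large arms. Of these, 20 on 3R (76.9%) and 82 on the other large arms (80.4%) were in neither replicate, and 0 were in both on either side. Equal scores were not limited to that width. On 3R 6 of the 26 (23.1%) shared a score, as did 153 members of other widths (8.33%). On the other large arms 27 of the 102 (26.5%) did, and 1262 members of other widths (20.0%). Equal scores were counted within 3R and within the pooled other arms. The member at 1.89, whose equals lie on other arms, is thus not among the 6. The larger pool offers more partners for an equal score, so the shares of 3R and the other arms cannot be compared directly. Members in neither replicate with a score above 1 were found on every large arm. They were 8 of 1862 members on 3R, 12 of 1541 on 2L and 6 of 1610 on 2R. On 3L they were 7 of 1671 and on X 14 of 1589. The smallest width was less common among them there than on 3R, with 3 of 12 on 2L and 3 of 6 on 2R. On 3L it was 4 of 7 and on X 6 of 14.

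On 3R, members with 1 replicate behind them stayed low. The highest of those in replicate 1 only was 3R:24077859-24079952, which scored 0.569 in the replicate set and 0.626 in replicate 1, followed by 3R:5353222-5356344 (0.480 and 0.772) and 3R:5176385-5180038 (0.479 and 0.785). In replicate 2 only, 3R:1372511-1374989 scored 0.602 in the replicate set and 0.901 in replicate 2, followed by 3R:10216113-10218196 (0.594 and 0.879) and 3R:12049686-12051989 (0.578 and 0.786). The widest of these 6 measured 3.65 kb. On the other large arms such members reached higher scores, up to 1.97 in replicate 1 only and 1.25 in replicate 2 only.

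POF cover was uneven along 3R, and the replicates followed the same course. Over the 27 complete windows of 1 Mb the covered share ran from 7.20% to 22.2% in replicate 1 and from 6.38% to 18.6% in replicate 2, with medians of 10.5% and 10.1%. Across the windows Pearson's r between the replicates was 0.96 and Spearman's rho 0.93, a description with no test, as the windows of a list share its library. Without the most covered window r was 0.95.

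That window, from 5000001 to 6000000, was covered to 22.2% in replicate 1 and 18.6% in replicate 2, a mean of 20.4% ± 2.57 (SD, n = 2), against an arm median of 10.3% by the mean of the replicates. It held 97 cluster starts of replicate 1, 77 of replicate 2 and 111 of the replicate set, where the arm average per Mb was 50.1, 43.0 and 66.7. Among the 117 complete windows of the large arms it ranked first in the replicate set and in replicate 1, and second in replicate 2 behind 2L from 10000001 to 11000000, at 18.6% against 19.1%. In replicate 1 the same 2L window stood at 21.5%. Inside the 3R window the cover was itself patchy: of its 10 stretches of 100 kb, the one from 5900001 to 6000000, which holds the 22.6 kb block, was covered to 36.3% and 32.8% in replicates 1 and 2, that from 5300001 to 5400000 to 35.2% and 29.2%, and that from 5700001 to 5800000 to 12.0% and 6.83%.

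The next most covered windows were those from 7000001 to 8000000, at 14.7% ± 0.588, and from 19000001 to 20000000, at 14.3% ± 0.399 (SD, n = 2 each). Their means differed by less than their spread, but within each replicate the first was higher, at 15.1% against 14.6% and 14.3% against 14.1%. The window from 1000001 to 2000000 had a similar mean, 14.3% ± 0.231 (SD, n = 2). It was below both in replicate 1, at 14.2%, and above both in replicate 2, at 14.5%. The least covered were those from 22000001 to 23000000, at 6.81% ± 0.546, from 15000001 to 16000000, at 6.93% ± 0.779, and from 23000001 to 24000000, at 7.10% ± 0.204 (SD, n = 2 each). The means of these 3 differed by less than the spread of either of the first 2, and their order changed between the replicates. In the order named they stood at 7.20%, 7.48% and 7.24% in replicate 1 and at 6.42%, 6.38% and 6.95% in replicate 2. The ratio of the most to the least covered window was 3.00 by the mean of the replicates, and 2.15 without the most covered window. The window from 1000001 to 2000000 had the highest share of members in both replicates, 50 of 71 (70.4%), and that from 3000001 to 4000000 the lowest, 22 of 61 (36.1%). Its cover of 7.62% ± 0.307 (SD, n = 2) was the fifth lowest of the arm.

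**Figure D5:**
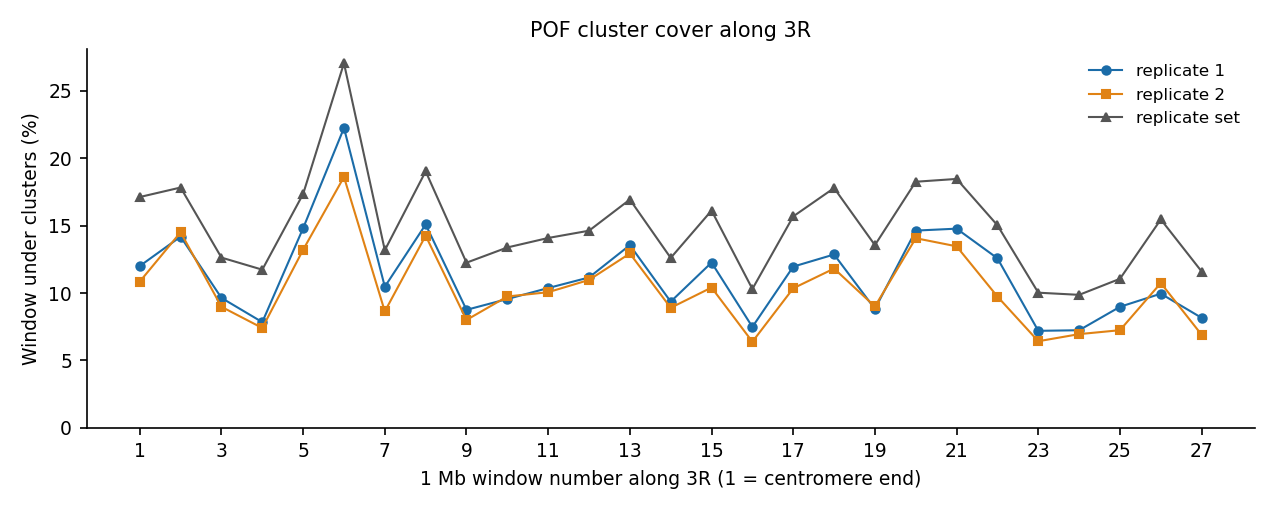
Share of each of the 27 complete 1 Mb windows of 3R that lay under POF clusters, in order from the centromere end, with 1 line for each replicate and for the replicate set. Both replicates peak in window 6, at 22.2% and 18.6%, and are low in windows 16, 23 and 24, between 6.38% and 7.48%.

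With smaller windows the lists differed in where cover was highest. With 500 kb windows replicate 1 was highest from 5000001 to 5500000, at 22.3%, and the replicate set from 5500001 to 6000000, at 28.5%, both inside the most covered 1 Mb window, while replicate 2 was highest from 1000001 to 1500000, at 22.1%. By the mean of the replicates the window from 1000001 to 1500000, with 21.2% in replicate 1, came ahead of that from 5500001 to 6000000, with 22.2% and 19.5% in replicates 1 and 2. With 100 kb windows both replicates were highest from 4800001 to 4900000, which holds the 11.6 kb member named above, at 42.8% and 37.0%, while the median window had 9.74% and 8.90%. The replicate set was highest from 5900001 to 6000000, at 47.5%. No cluster fell in 14 of the 279 windows of 100 kb in replicate 1 and in 25 in replicate 2, and no member in 6.

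The arm was next split at its midpoint, 13952526. The centromere side was covered to 11.6% ± 0.614, against 9.95% ± 0.631 for the telomere side (SD, n = 2 each), a difference of 1.67 points in replicate 1, 1.69 in replicate 2 and 1.70 for the replicate set. The exact two-sided sign-flip permutation test gave p = 0.5, the smallest value that 2 replicates allow. Without the window from 5000001 to 6000000, which lies on the centromere side, the mean difference was 1.00 points.

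Neighbouring clusters were usually several kb apart, with median gaps of 7.57 and 7.65 kb in the replicates and 5.80 kb for the replicate set. Gaps of at most 1 kb made up 11.6%, 11.4% and 13.7% of all gaps. Clusters joined by such gaps into chains were 301 of the 1399 of replicate 1, 263 of the 1200 of replicate 2 and 475 of the 1862 members, and most chains were pairs. Of the 475 members in chains 294 (61.9%, 57.4% to 66.3%) were in both replicates, against 689 of the 1387 lone members (49.7%, 47.0% to 52.3%, exact 95% binomial intervals). Members of a chain are neighbours and not independent, so these intervals cover counting error only, and the difference was not tested. The members in chains were also slightly wider, with medians of 2150 against 1996 bases.

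The longest chains of the replicate set held 4 members. The longest of these by span was 3R:20870106-20883785, 13.7 kb with 5 clusters of replicate 1 and 3 of replicate 2 under it, and scores from 0.289 to 0.665. It was followed by 3R:8247455-8260847, 13.4 kb with scores from 0.282 to 1.86, and 3R:19546900-19560095, 13.2 kb with scores from 0.417 to 0.926. Each of these 3 chains had clusters of both replicates in it.

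Long stretches of 3R carried no cluster in any list. Over the whole arm 84.1% of the sequence was free in all 3 lists and 8.21% was covered in all 3. Stretches free in all 3 lists and at least 100 kb long, a limit chosen after the values were seen, numbered 14 and made up 6.04% of the arm, 5 of them on the centromere side, 9 on the telomere side and 7 beyond position 22000000. The longest ran from 1689293 to 1831756, over 142 kb. The next were 3R:2033284-2170673 with 137 kb, 3R:16155222-16289108 with 134 kb, 3R:18620946-18752448 with 132 kb and 3R:23202906-23334353 with 131 kb. The longest lay in the window from 1000001 to 2000000, which was among the 4 most covered, so free and dense sequence stood side by side there. It was bordered by members in both replicates on either side, scoring 0.848 and 0.659.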

How the data were processed

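Regions on 3R came from 3 lists of POF ChIP-seq clusters of Drosophila head nuclei, 1 for each ChIP replicate and 1 for the replicate set. Reads were handled with Bowtie 0.12.7, per the submitters' processing notes, and the genome is FlyBase release 5, per the file headers. Each deposited region has a position and a score given by the authors. No source used here gives the scale of the score, the caller, its thresholds, the read filters or the depth, on which cluster number and width may depend. Input libraries were not analysed here.

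Cover, overlaps, windows of 1 Mb and gaps were computed with Python 3.11.15 (scipy 1.17.1, pandas 2.3.3, numpy 2.4.6, and matplotlib 3.10.9 for figures). The code was checked on simulated regions with known overlaps. Cover is the mean of the replicates unless stated. Scores were compared within a list, apart from the correlation over pairs and values set side by side. Replicates were compared with exact two-sided sign-flip permutation tests, and shares have exact Clopper-Pearson 95% intervals. A count of 0 allows up to 3 counts of the total.

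The rule for named regions took the members with the highest scores in each support class (10 in both replicates, 5 in neither, 3 in each replicate alone), the 5 widest in both, and the 3 chains with the most members, ties going to the longest span. It also took the 3 most and 3 least covered windows, the 5 longest free stretches and all depleted regions. Members and rules were chosen with earlier results of these data known. The 5 kb, 2 kb and 100 kb limits, the score limit of 1, the 100 kb windows, the adjoining members, the members of smallest width and the windows named for their support were chosen after the values were seen. On 3R 0 clusters had identical bounds in the 2 replicate lists. Alternatives were score and width thresholds, merging, a stricter overlap, other windows, trimmed arms and leaving out a replicate or an arm. Planned comparisons with genes were not made, for want of an annotation of release 5.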

Additional observations from a re-analysis of the deposited data

Results flagged for a closer look

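The replicate set marks 8 regions of 3R, of 19 in the whole series, as depleted of POF, and no comparison above used them. They are 1515 to 1854 bases wide, and their scores, -0.155 to -0.00392, lie below the lowest score of an enriched member on the arm, 0.0302. The lowest lies at 3R:262239-263929. Those at 3R:15704601-15706339, 3R:22277483-22279063 and 3R:27038345-27040059 likewise have no enriched cluster over them in either replicate. The other 4 do. Replicate 1 has enriched clusters over 3R:975786-977300, 3R:12089079-12090759 and 3R:20484362-20486191, with scores of 0.196, 0.0751 and 0.111. Replicate 2 has enriched clusters over 3R:13634021-13635874, 1 of them inside it with a score of 0.325 and 1 at its edge with 1.36. No control list was used here to set them against.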

How the results depend on the processing

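The covered share of 3R was 6.23% with only clusters at or above the median score of their list and 14.8% in the replicate set. It ran from 10.4% to 11.2% when either replicate was left out. Density was 22.3 clusters per Mb with the higher-scoring clusters and 66.7 in the replicate set, and 43.0 to 50.1 with a replicate left out. The score limit removes every cluster under the median score of its list, so lower cover and density were fixed by the limit itself. The median width was 2440 bases with the higher-scoring clusters, and 2041 to 2199 with a replicate left out. The difference in cover between 3R and the other large arms changed sign without replicate 1 (0.215 points, against -0.475 without replicate 2) and without 2R among the other arms (0.258 points), and kept it in the other alternatives, from -0.784 to -0.0992. The cause was not tested. The centromere side was more covered in all 8 alternatives, by 1.00 to 1.70 points, with 1.67 to 1.69 when a replicate was left out. Leaving out clusters narrower than any replicate cluster could change no cover, density or width of the replicate lists, which hold none. Leaving out a replicate gives the value of the other replicate, already printed above.

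Members in both replicates made up 61.5% with higher-scoring clusters only and 66.4% without clusters narrower than any replicate cluster. Support by 1 replicate ran from 62.5% without replicate 1 to 67.8% without replicate 2. The share of replicate 1 met by replicate 2 was 79.9% with higher-scoring clusters. The ratio of the most to the least covered window was 4.94 with 500 kb windows and 2.15 without the most covered 1 Mb window, chosen after seeing the data like the alternatives for density and width and the one without 2R. Merging clusters within 500 bases and requiring 50% overlap kept shares within their intervals. Arms and arm sides were compared within each replicate. For ChIP against input no paired analysis was possible because the input samples, which share replicate numbers with the ChIP samples, have no list analysed here. Depth is unknown, and its part in narrow and low-scoring clusters was not tested.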
